A study of Arabidopsis thaliana with 7 samples.

Results

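EFR, BIK1 and AT1G51850 are 3 Arabidopsis thaliana genes for kinases that act at or just under the plasma membrane. Each was found by its locus in the platform annotation and had 1 probe set, out of 22810 probe sets on the array and 13286 genes that could be named and compared. The probe sets were 246082_at for EFR (AT5G20480), 267624_at for BIK1 (AT2G39660) and 246366_at for AT1G51850. The genes were chosen by name with earlier results of these arrays known, in which their signals were lower after infection of the wild type or on the wrky53 array. All values below are therefore a description, and none is a test of how the genes were chosen.

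RNA from whole rosettes of 14-day-old plants was hybridised to 7 Affymetrix ATH1 arrays, an oligonucleotide array read in a single colour. Col-0 plants, the wild type, were taken after MgCl2, here called mock, or after the bacterial leaf pathogen Pseudomonas syringae strain Pst-DC3000, here called Pst or infection. The mutants, all sampled after Pst and not after mock, were T-DNA knockouts of WRKY53, WRKY60, WRKY40 and WRKY18 and a WRKY18/40 double knockout. All 7 groups shared a growth chamber and a substrate treated with the insecticide imidacloprid (Confidor). Each group had 1 array, so no difference could be set against a replicate error and no p-value was computed. The position of each insertion, the number of lines and plants behind an array and the time from treatment to harvest are not given in the sources used here.

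EFR is a receptor kinase with a leucine-rich repeat ectodomain that recognises bacterial elongation factor Tu, and it needs a folding pathway in the endoplasmic reticulum to reach the cell surface. On binding its ligand it pairs with the co-receptor BAK1. BIK1 is a receptor-like cytoplasmic kinase that sits beside EFR, FLS2 and other receptors, is released on their activation and phosphorylates targets such as the NADPH oxidase RBOHD. AT1G51850 encodes a leucine-rich repeat receptor kinase with a malectin-like ectodomain, and lies in a tandem cluster of related genes that holds IOS1, a positive regulator of immune receptor complexes. WRKY18, WRKY40 and WRKY60 are the closely related transcription factors of WRKY group II-A, and WRKY53 is a WRKY factor known for its part in leaf senescence.

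A few facts of the arrays bear on every value. Signals are MAS5 intensities on a linear scale, and signals below a floor of 22.1, which is each array's 40th percentile of signal averaged, were set to it before ratios were taken. A ratio with 1 side under the floor is a bound. The wrky60 array stood apart from the others. Its 25S ribosomal RNA control had a signal of 14546 against 1188 to 2947 elsewhere, its bacterial spike-in probe sets a median of 19.8 against 3.56 to 4.63, and 4905 genes lay below the floor on it against 6065 to 6250. WRKY53 itself was at 3.07 in its own knockout and at 79.3 to 358 on the other arrays. The leaf genes RCA, PRK and SBPASE, which serve carbon fixation, had signals of 2657 to 5865, 1053 to 1756 and 962 to 1573 over the 7 arrays. The guard-cell gene FAMA had 48.8 to 86.0. The root-hair gene EXPA7 was below the floor on every array, while PYK10, a beta-glucosidase best known from roots, had 365 (364.5) on mock, its lowest array, and up to 892 on wrky60. Against mock, PYK10 was 1.80-fold higher on the infected wild type and 2.15-fold higher on wrky53, where the 3 genes were lower, and its part in the results was not tested. The flower and seed markers and the other leaf, guard-cell and root markers listed have no probe set named to a single gene and were not examined.

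EFR had its highest signal in uninfected plants and was at or under the floor on 5 of the 6 Pst arrays. Its signal was 43.6 on the wild-type mock array, 22.1 on the infected wild type, 20.0 (19.99) on wrky18, 20.7 on wrky40, 30.5 on the wrky18 wrky40 double mutant, 12.6 on wrky53 and 7.12 on wrky60. The mock array and the double mutant array are the only ones on which EFR stood above the floor. Against mock, EFR was at least 1.98-fold lower on the infected wild type and 1.43-fold lower on the double mutant array. The double mutant was at least 1.38-fold higher than the infected wild type, the same bound as against wrky18 and wrky40. Values under the floor have no order, so wrky18, wrky40, wrky53, wrky60 and the wild type after Pst are not ranked for EFR.

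BIK1 was measured well above the floor on all 7 arrays. Its signal was 412 on the mock array, 234 on the infected wild type, 303 on wrky18, 283 on wrky40, 355 on the double mutant, 149 on wrky53 and 271 on wrky60. The mock array was the highest, the double mutant the next, and wrky53 the lowest, with the wild type after Pst just above it. Against mock, BIK1 was 1.77-fold lower on the infected wild type, 2.77-fold lower on wrky53 and 1.16-fold lower on the double mutant. Against the infected wild type, wrky53 was 1.57-fold lower and the double mutant 1.52-fold higher, and wrky53 was 2.38-fold below the double mutant.

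The single mutants of WRKY18 and WRKY40 lay between these extremes for BIK1. The wrky18 array was at a log2 ratio of 0.37 and the wrky40 array at 0.28 to the infected wild type. The double mutant was in turn 1.17-fold above wrky18 and 1.25-fold above wrky40. On the log2 scale the double mutant array stood 73.5% of the way back from the wild-type Pst level to the mock level, wrky18 45.7% and wrky40 33.6%. The wrky60 array stood 26.3% of the way back, but its direction is not settled. Its log2 ratio to the infected wild type was 0.22 as reported and -0.11 with median centring. Signals on the infected wild type, where this scale starts, were known when the genes were chosen, so nothing is read from these percentages. Between the double mutant and the infected wild type, neighbouring steps in the order were 1.04-fold to 1.17-fold. All are smaller than 1.40-fold, the median gene's highest over lowest signal on the 5 Pst arrays left without wrky60, each of another genotype. No replicate spread exists to order them by.

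AT1G51850 had the widest span of the 3 genes. Its signal was 748 on the mock array, 293 on the infected wild type, 245 on wrky18, 266 on wrky40, 280 (280.01) on the double mutant, 73.8 on wrky53 and 177 on wrky60. Every Pst array was well below the mock array, and wrky53 was well below every other Pst array. Against mock, AT1G51850 was 2.56-fold lower on the infected wild type, 3.05-fold lower on wrky18, 2.81-fold on wrky40, 2.67-fold on the double mutant, 4.24-fold on wrky60 and 10.1-fold on wrky53. Against the infected wild type, wrky53 was 3.96-fold and wrky60 1.66-fold lower. The 4 arrays of the wild type, double mutant, wrky40 and wrky18 followed each other in steps of 1.05-fold, 1.05-fold and 1.09-fold, too close to be ordered without replicates.

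**Figure D1:**
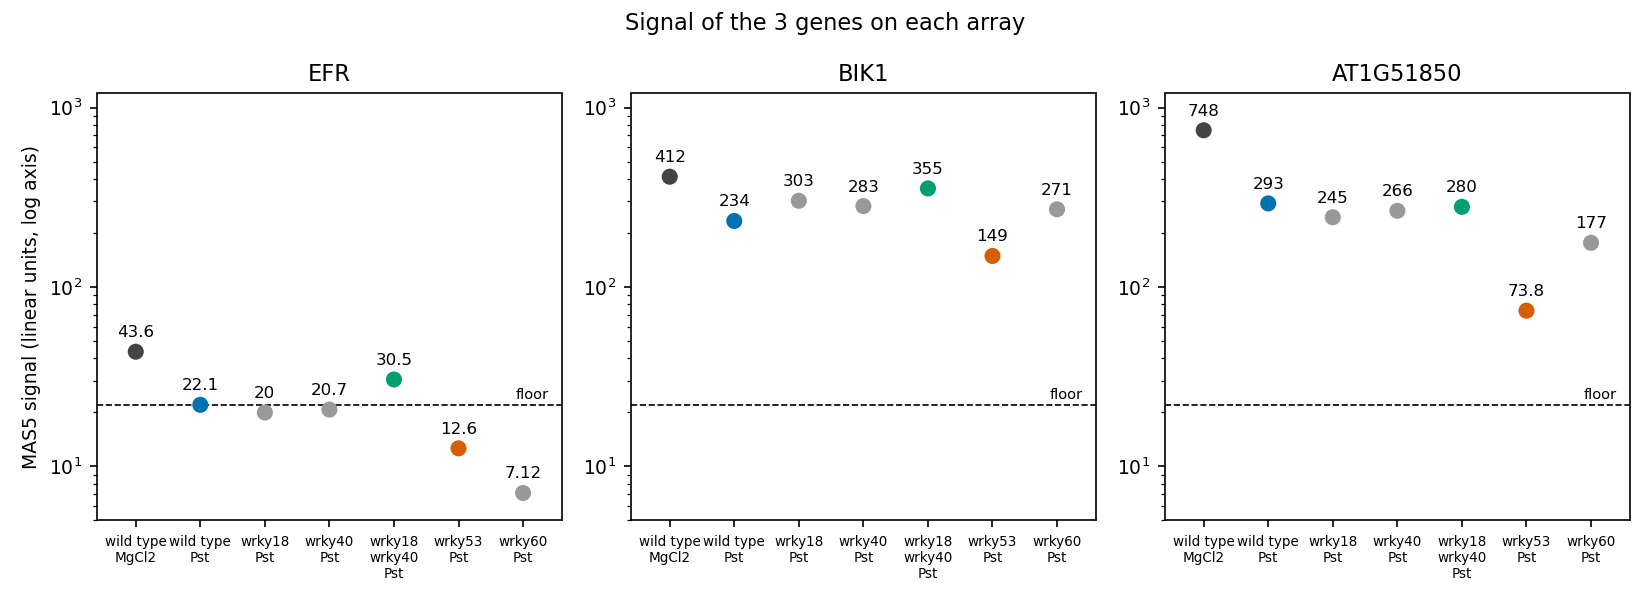
MAS5 signal on a log axis for EFR, BIK1 and AT1G51850 on each of the 7 arrays, 1 point per array, with the floor of 22.1 as a dashed line. All 3 genes are highest on the MgCl2 array, BIK1 and AT1G51850 are lowest on wrky53 (149 and 73.8), and the double mutant is next to the MgCl2 array for EFR and BIK1 but level with the wild type after Pst for AT1G51850.

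In the wild type after Pst against mock, 1 of 3 genes was at least 2-fold lower, where 1.05% of all 13286 genes were. The log2 ratios were -1.35 for AT1G51850, -0.98 or lower for EFR and -0.82 for BIK1, against a median of 0.01 over the 7259 genes with a mean signal no lower than the floor. Among those 7259, AT1G51850 was the 38th lowest and BIK1 the 231st. On wrky53 against the wild type after Pst, 1 of 3 genes was at least 2-fold lower, beside 0.504% of all genes. AT1G51850 had a log2 ratio of -1.99, the 6th lowest, BIK1 of -0.65, the 175th lowest, and EFR was at or under the floor on both arrays. Because the genes were chosen with these contrasts known, nothing is read from the shares.

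On the double mutant against the wild type after Pst, 0 of 3 genes reached 2-fold, beside 0.715% of all genes higher and 0.0828% lower. BIK1 had a log2 ratio of 0.60, the 312th highest of 7259, EFR 0.47 or higher, and AT1G51850 -0.06, close to the median of -0.04 over these genes. Against the median of the other Pst arrays BIK1 was at 0.39 and AT1G51850 at 0.19. Signals on the infected wild type were known when the genes were chosen, so nothing is read from the rank. The leaf genes on the same array were all below the wild type after Pst, at -0.16 for RCA, -0.36 for PRK and -0.51 for SBPASE, and their part in the result was not tested. In RNA from whole rosettes, fewer cells of a kind and less RNA per cell cannot be told apart. Between the double mutant and its 2 parent mutants, 0 of 3 genes reached 2-fold, beside 0.745% of genes higher than wrky18 and 0.406% higher than wrky40. AT1G51850 had log2 ratios of 0.19 and 0.07 there.

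**Figure D2:**
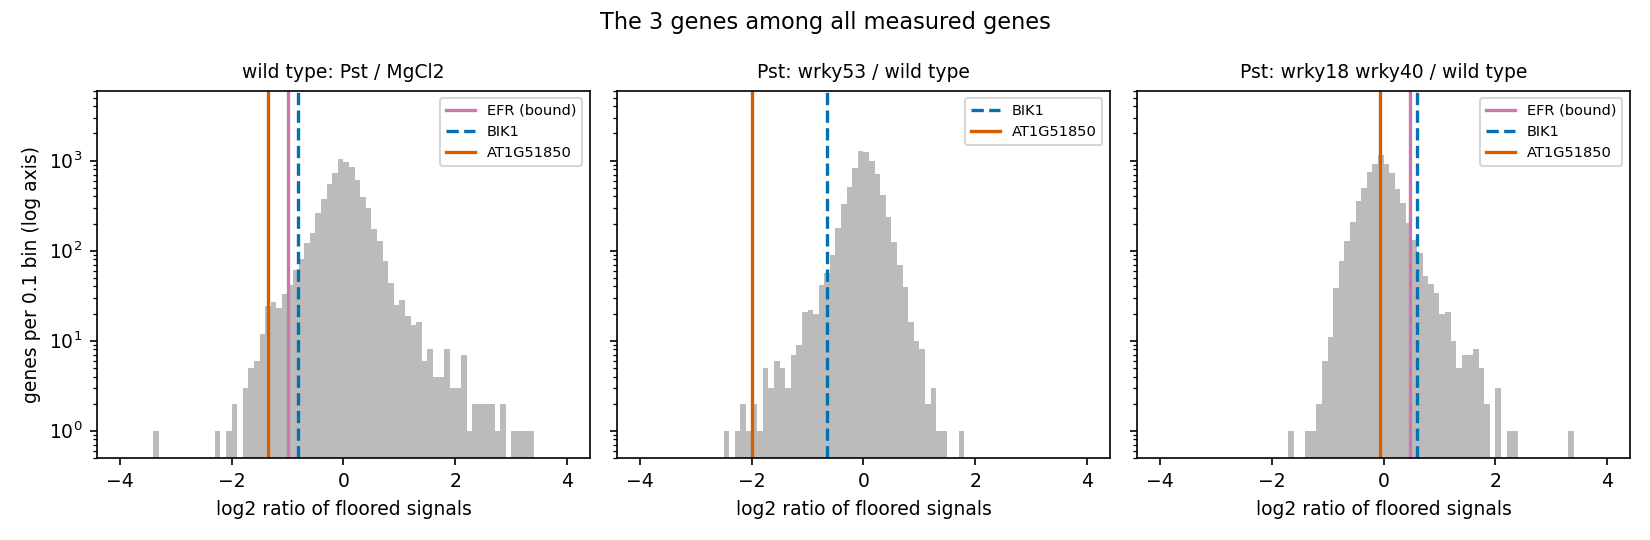
Log2 ratios of floored signals for all 7259 genes with a mean signal no lower than the floor, as a histogram with a log count axis, in 3 comparisons, with EFR, BIK1 and AT1G51850 as vertical lines; a line marked bound had 1 array under the floor, and EFR is not drawn for wrky53, where both were. AT1G51850 lies in the low tail in the wild type (-1.35) and on wrky53 (-1.99) and near the centre on the double mutant (-0.06), while BIK1 lies low, low and high (-0.82, -0.65 and 0.60).

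The pairing of wrky53 with the double mutant gave wide separations. There 2 of 3 genes were at least 2-fold lower on wrky53, where 1.58% of all genes were, with log2 ratios of -1.92 for AT1G51850 and -1.25 for BIK1, and EFR at -0.47 or lower. With the floor at the 25th percentile EFR was at -1.27 in this pairing, which makes it 3 of 3. Over the settings tried, 124 to 349 genes were at least 2-fold lower in this pairing, against 210 as reported. Against mock, 2 of 3 genes were at least 2-fold lower on wrky53, beside 2.12% of all genes, with AT1G51850 at -3.34, again the 6th lowest of 7259, and BIK1 at -1.47. EFR, a bound of 1.98-fold there, went past 2-fold with quantile normalisation (-1.03), median centring (-1.05), cyclic loess (-1.08) and the floor at the 25th percentile (-1.79), which makes it 3 of 3. In these settings 289, 304, 305 and 429 of all genes were at least 2-fold lower, against 281 as reported. On the double mutant against mock 1 of 3 genes was at least 2-fold lower, beside 0.775% of all genes. AT1G51850 was also past 2-fold on wrky18, wrky40 and wrky60 against mock, where 1.42%, 1.22% and 3.54% of all genes were at least 2-fold lower. EFR was again a bound of 1.98-fold on these 3 arrays and went past 2-fold with the same 3 scalings and, at -1.13, -1.07 and -2.40, with the lower floor. With the lower floor 336, 264 and 882 of all genes were at least 2-fold lower on them, against 189, 162 and 470 as reported. With the 3 scalings the numbers were 155 to 176, 163 to 181 and 532 to 973. All 6 of these comparisons share the mock array, and those of the mutants with the wild type share the infected wild type. On wrky60 against the wild type after Pst, AT1G51850 had a log2 ratio of -0.73 and BIK1 of 0.22. Neither of these genes reached 2-fold there, beside 2.36% of genes lower and 6.41% higher. With median centring AT1G51850 was at -1.06, past 2-fold, and BIK1 at -0.11. In that setting 726 of all genes were at least 2-fold lower, against 313 as reported. EFR was under the floor on both arrays and is not counted. With the floor at the 25th percentile EFR was at -1.42, past 2-fold, and 709 of all genes were at least 2-fold lower. On wrky18 and wrky40 against the wild type after Pst, no member reached 2-fold either, beside 0.0978% of genes higher and 0.331% lower on wrky18, and 0.0602% and 0.0828% on wrky40. AT1G51850 had -0.26 and -0.14 there.

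Across the 5 Pst arrays other than wrky60, AT1G51850 spanned 3.96-fold from lowest to highest, a span matched or exceeded by 0.579% of the 7259 genes. BIK1 spanned 2.38-fold, matched or exceeded by 3.24% of genes. With wrky60 included the spans were the same, and the shares were 1.96% for AT1G51850 and 14.5% for BIK1. In both genes wrky53 set the low end. Signals on that array were known when the genes were chosen, so nothing is read from these shares. The high end was the wild type for AT1G51850 and the double mutant for BIK1. Over the 7 arrays, which share no replicates and include the mock array, the log2 signals of the 2 genes had a Pearson r of 0.89, and 0.87 over the 5 Pst arrays alone. The r of 0.87 rests on the wrky53 array, the lowest in both genes. On the wild type, wrky18, wrky40 and double mutant after Pst, BIK1 had 234, 303, 283 and 355. AT1G51850 had 293, 245, 266 and 280 on the same arrays, a different order. EFR, at the floor on 4 of the 5 Pst arrays, had r of 0.69 with BIK1 and 0.73 with AT1G51850 over the 7 arrays, and 0.56 and 0.28 over the 5. With EFR set to 1 value on those 4, its r over the 5 reflects only where the double mutant stands for the other gene. Over the 7 it rests on the mock and double mutant arrays, and no shared pattern is read from it. These correlations are descriptions over few arrays.

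AT1G51850 lies among related receptor kinase genes, and those of them that could be measured had lower signals on the same arrays. A list of 12 genes of its subfamily beside it, chosen with earlier results of these arrays known, was placed by the gene order of assembly TAIR10.1. Of the 12, 9 had a named probe set and 4 had a mean signal no lower than the floor: AT1G51790, AT1G51805, AT1G51820 and AT1G51890. IOS1 has no probe set named to a single gene and was not examined. After Pst in the wild type, 3 of these 4 were at least 2-fold lower than on mock, beside 1.9% of genes with a mean signal no lower than the floor, with a median log2 ratio of -1.17 against 0.01 for all such genes. On wrky53 against the wild type, 3 of 4 were at least 2-fold lower, beside 0.923% of those genes, with a median of -1.60 against 0.02.

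AT1G51790, 10 genes before AT1G51850, had signals of 432 on mock, 203 on the wild type after Pst, 192 on wrky18, 191 on wrky40, 233 on the double mutant, 66.7 on wrky53 and 169 on wrky60. AT1G51820, 4 genes before, had 195, 108, 96.3, 75.7, 100 (100.2), 35.7 and 82.4 on the same arrays in that order. AT1G51890, 4 genes after, had 335, 139, 124, 114, 197, 45.4 and 84.0. All 3 had wrky53 as their lowest array and mock as their highest, and all 3 were between 3.03-fold and 3.06-fold lower on wrky53 than on the infected wild type. AT1G51805, 7 genes before, departed from this. It had 383 on mock and 160 (160.4) on the wild type after Pst, 2.39-fold lower, but 117 on wrky53, 1.37-fold below the wild type, and 187 on wrky60.

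On the double mutant AT1G51890 was 1.42-fold above the infected wild type and AT1G51790 1.15-fold above, while AT1G51805, AT1G51820 and AT1G51850 lay within 1.08-fold of it. The median gene spanned 1.40-fold over the 5 Pst arrays other than wrky60. With 1 array per group, no separation of the cluster members is read from these values. AT1G51860, next to AT1G51850, had 43.2 on mock and was below the floor on all Pst arrays, at least 1.96-fold lower. The other 4 cluster genes with a named probe set, AT1G51810, AT1G51830, AT1G51840 and AT1G51910, were below the floor on mock and on each Pst array except wrky60, where AT1G51810 had 23.5 and AT1G51910 55.3. AT1G51920, 9 genes after and not in the kinase list, was picked after its values were seen. It had 78.1 on mock, 27.5 on the wild type after Pst, 56.8 on the double mutant and 12.2 on wrky53, so lower signals here were not confined to the kinase genes. Whether probes of a cluster gene also bind RNA of a related copy was not tested.

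**Figure D3:**
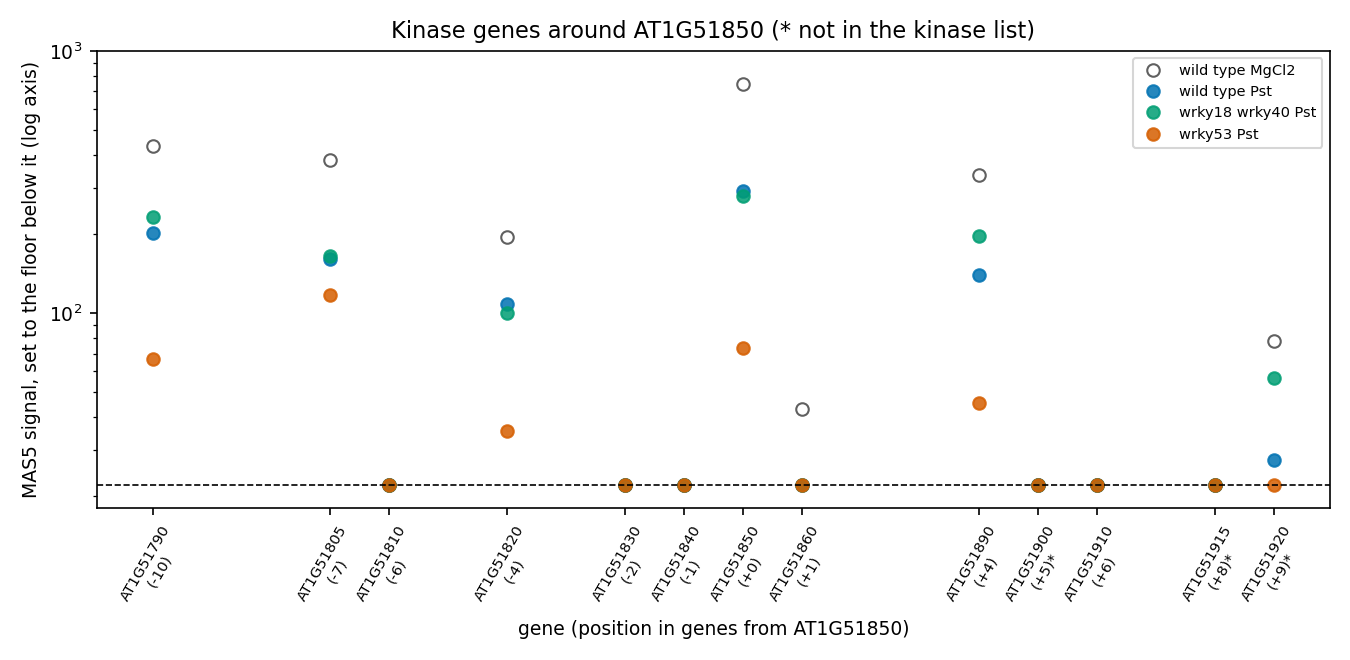
MAS5 signal on a log axis, set to the floor below it, for the genes with a named probe set around AT1G51850, by their position in genes from it, on the wild-type MgCl2, wild-type Pst, double mutant and wrky53 arrays. In AT1G51790, AT1G51820, AT1G51850 and AT1G51890 the wrky53 point lies apart below the wild-type Pst point; signals of different probe sets are not compared with each other, and genes marked with a star are not in the kinase list.

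Elsewhere in the genome 30 more genes of this receptor kinase subfamily were listed, of which 24 had a named probe set and 2 a mean signal no lower than the floor. AT1G05700 had 39.6 on mock, 23.9 on the wild type after Pst, 40.5 on the double mutant and 6.84 on wrky53. AT5G59680 had 31.1, 12.9, 57.7 and 7.88 on these arrays and was at least 2.62-fold higher on the double mutant than on the infected wild type. Its mean signal of 24.2 reached the floor only through the double mutant value. That value was thus a condition of its being shown, and nothing is read from it. On wrky18 it had 33.7, at least 1.53-fold above the infected wild type. On the double mutant AT1G05700 was level with mock and AT5G59680 above it, while AT1G51850 was below mock there, and both genes are close to the floor. Of 5 listed relatives of EFR, 3 had a named probe set, and the single one with a mean signal no lower than the floor, AT3G47570, had 47.8 on mock, 45.7 on the wild type after Pst, 56.6 on wrky18, 51.5 on wrky40, 39.2 on the double mutant, 45.9 on wrky53 and 116 on wrky60.

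The other genes of cell-surface immunity were taken from a list of 77, of which 14 had a probe set named to a single gene and 10 a mean signal no lower than the floor. FLS2, BAK1, CERK1, RBOHD and PBL1, a close relative of BIK1, are among those with no probe set named to a single gene and were not examined, so the list is a small and uneven sample of the pathway. In the wild type after Pst 3 of 10 were at least 2-fold lower than on mock, beside the 1.9% above, and 0 higher, with a median log2 ratio of -0.47. On wrky53 against the wild type 1 of 10 was at least 2-fold lower, beside 0.923%, with a median of -0.15. That gene, SD1-29, was no longer past 2-fold with log2 of signal plus the floor value, which left 0 of 10. On the double mutant 0 of 10 reached 2-fold, beside 1.25% of such genes higher, with a median of 0.28 against -0.04 for all such genes.

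Among the receptors, AT4G08850, entered in the list as MIK2, a receptor of secreted peptides, had 1382 on mock, 499 on the wild type after Pst, 483 on wrky18, 611 on wrky40, 782 on the double mutant, 260 (259.9) on wrky53 and 320.2 on wrky60. It was 2.77-fold lower after Pst in the wild type, then 1.92-fold lower again on wrky53 and 1.57-fold higher on the double mutant. As for BIK1, mock and the double mutant were its highest arrays and wrky53 its lowest. SD1-29, the receptor LORE for bacterial hydroxy fatty acids, had 288 on mock, 132 on the wild type after Pst, 125 on wrky18, 109 on wrky40, 152 on the double mutant, 64.7 on wrky53 and 97.7 on wrky60. It was 2.18-fold lower after Pst and 2.04-fold lower again on wrky53. FER, a receptor of RALF peptides, had log2 ratios of -0.21 for Pst over mock in the wild type and -0.16 for wrky53 over the wild type, and AT1G27190 (BIR3), a BAK1-binding pseudokinase, had 0.38 and 0.10.

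The measured kinases related to BIK1 had smaller differences on wrky53. AT5G47070 (PBL19) had a log2 ratio of -0.38 after Pst in the wild type and 0.01 on wrky53 against it, AT3G09830 (PCRK1) -0.55 and 0.00 (0.004), and AT5G03320 (PCRK2) -0.87 and -0.40. All 3 were above 0 on the double mutant against the wild type, at 0.48, 0.36 and 0.14, as BIK1 was at 0.60. AT3G12620 (PP2C38), a phosphatase that acts on BIK1, had -0.33 after Pst, -0.13 on wrky53 and 0.37 on the double mutant. AT1G11960 (OSCA1.3), a calcium channel phosphorylated by BIK1, had 0.06, 0.03 and -0.20. ATERDJ3B, a chaperone of the endoplasmic reticulum needed for EFR to accumulate, had 554 on mock, 248 on the wild type after Pst, 319 on the double mutant and 222 on wrky53, and was thus 2.23-fold lower after Pst in the wild type.

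**Figure D4:**
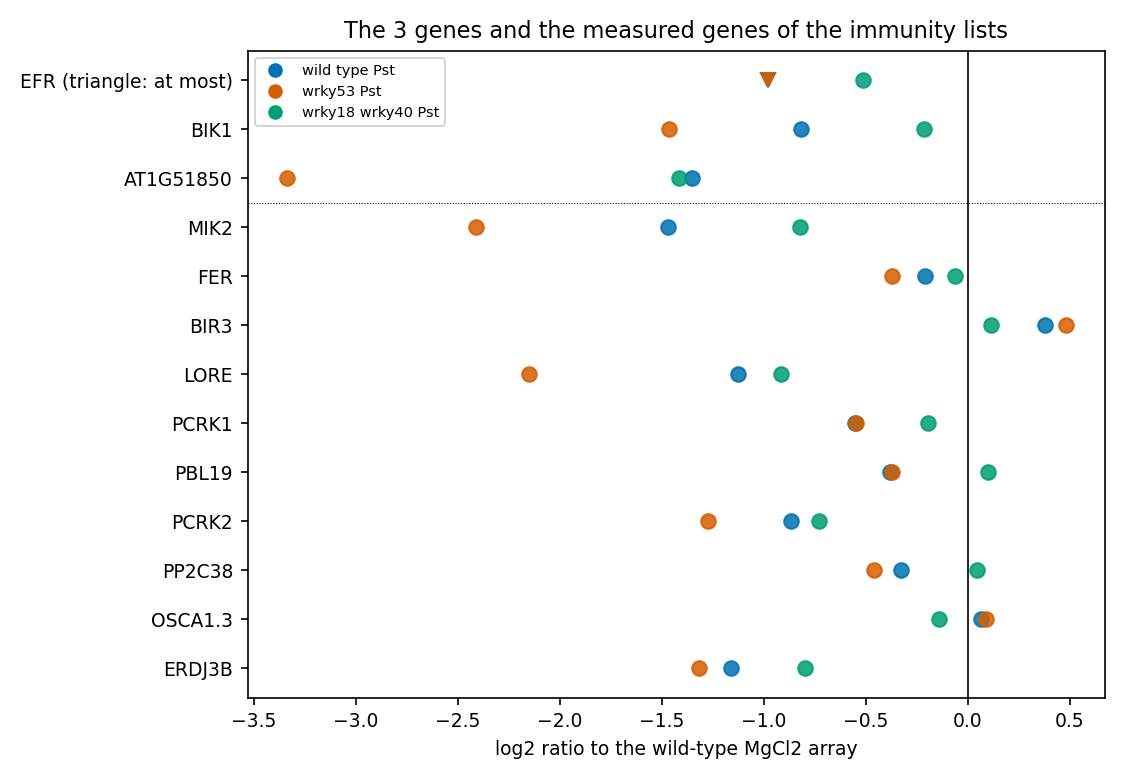
Log2 ratio to the wild-type MgCl2 array for EFR, BIK1, AT1G51850 (above the dotted line) and the 10 measured genes of the immunity lists, on the wild-type Pst, wrky53 and double mutant arrays; triangles are upper limits from signals under the floor. AT1G51850 (-3.34) and MIK2 (-2.41) lie farthest below 0 on wrky53, and the double mutant point lies to the right of the wild-type Pst point for BIK1 but not for AT1G51850.

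For each gene the 5 genes with the most alike pattern were taken by Pearson r of log2 floored signals over the 7 arrays, among 7258 other genes. All 7 arrays differ in genotype or treatment, so r has no p-value here. For AT1G51850 they were AT2G20670 (0.99), the berberine-bridge-enzyme-like gene AT4G20860 (0.99), WRKY22 (0.99), its cluster neighbour AT1G51790 (0.99) and ATPMEPCRB, a pectin methylesterase gene (0.98). This likeness rests mainly on the high mock and low wrky53 arrays. Over the wild type, double mutant, wrky40 and wrky18 after Pst, AT1G51850 moved in steps of only 1.05-fold to 1.09-fold. WRKY22, a transcription factor downstream of immune receptors, had 370.4 on mock, 146 on the wild type after Pst, 150 (149.7) on the double mutant and 57.3 on wrky53. AT2G20670 had smaller steps, at 532 on mock, 347 on the wild type after Pst and 216 on wrky53.

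For BIK1 the 5 were AT4G23470 (0.98), AT5G20050 (0.98), AT5G44910 (0.97), AT3G48570 (0.97) and AT1G52200 (0.97). AT4G23470 had 778 on mock, 542 on the wild type after Pst, 692 on the double mutant and 427 on wrky53. AT1G52200 had wider steps, with 2664, 1359, 1703 and 575 on the same arrays. For EFR they were UGT71B6, a glucosyltransferase of abscisic acid, AT4G14610, a transcribed pseudogene in the RefSeq table, and AT3G10930, AT5G58120 and AT4G37900, with r of 0.98 to 1.00 (0.999). That likeness rests on the mock and double mutant arrays, since EFR was set to the floor on the other 5. UGT71B6, for example, had 66.8 on mock, 35.4 on the double mutant and less than the floor on the other 5 arrays.

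**Figure D5:**
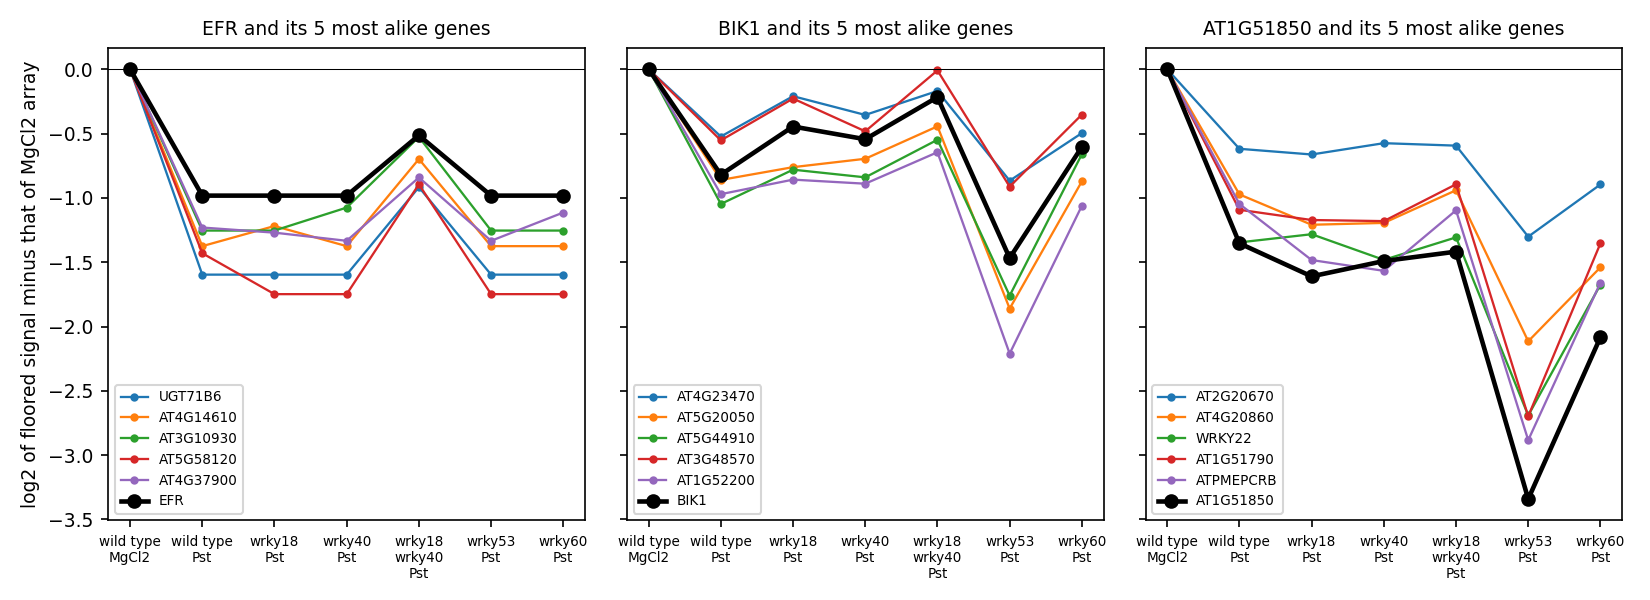
Log2 floored signal minus that of the wild-type MgCl2 array, on the 7 arrays, for EFR, BIK1 and AT1G51850 (thick black) and the 5 genes most alike to each (thin), which were chosen for this likeness; lines only join points of a gene and imply no order of arrays. EFR leaves its floor value on the double mutant array alone among Pst arrays, the BIK1 panel is high on the double mutant and low on wrky53, and the AT1G51850 panel is low on wrky53 with the double mutant near the wild type.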

How the data were processed

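The deposited intensities are linear signals per probe set on 7 ATH1 arrays, made by the authors with MAS5 as the submitters' processing notes record without a version, and were used unchanged. Precision is limited by the number of arrays and by how far a signal stands above background. Of 22746 probe sets that are not controls, 13513 have 1 gene in the platform annotation, 503 several and 8730 none, and 13436 of the 13513 were found in RefSeq's TAIR10.1 gene table. The brightest probe set stood for each of 13286 genes, and the 7259 with a mean signal no lower than the floor are called measured. With 1 array per group, 14 pairs of arrays were compared by fold, with 2-fold as the size counted and no test. The genes and lists were chosen with earlier results of these data known. The text names the 3 genes, the 5 most alike to each, list members that reached 2-fold in the wild type, wrky53 or double mutant comparison or had the highest signals, and WRKY53. Other cluster genes with a named probe set are given by locus, and AT1G51920 was chosen after its values were seen. Alternatives were other floors, scalings, probe set rules and comparators, and leaving out wrky60. Functions were tested on simulated data. Software was R 4.3.3 with limma 3.58.1, and Python 3.11.15 with pandas 2.3.3 and numpy 2.4.6. Sequences of these genes were not used here.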

Additional observations from a re-analysis of the deposited data

How the results depend on the processing

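Of 387 recomputed log2 ratios of the 3 genes, 376 stayed within 1.5-fold of the value reported, all 258 of BIK1 and AT1G51850 among them. No ratio past 2-fold changed sign. Many of these ratios could not move. Each gene has 1 probe set, so the other probe set rules returned the value reported. The lowest signals of BIK1 (149) and AT1G51850 (73.8) lie above every floor used. For them the other floors and leaving out wrky60 changed nothing either. Only the other scalings, log2 of signal plus the floor value and the other comparator could move their ratios. The 11 ratios beyond 1.5-fold were all of EFR. With the floor at the 25th percentile (8.27) they were -1.79 for wrky53 and -2.40 for wrky60 against mock, -0.81 and -1.42 for these against the wild type after Pst, and -1.27 for wrky53 against the double mutant. With the floor at the 60th percentile (60.6), above every EFR signal, the ratios of the wild type, wrky18, wrky40, wrky53 and wrky60 to mock were all 0. With log2 of signal plus the floor value, wrky60 against the wild type after Pst gave -0.60. These follow from where the floor lies. BIK1 on wrky60 against the wild type ranged from -0.11 to 0.38, so it has no settled direction. AT1G51850 stayed between -0.08 and -0.04 on the double mutant and between -0.17 and -0.12 on wrky40 against the wild type, and was at 0.19 and 0.12 against the median of the other Pst arrays. Against that median BIK1 was at 0.39 on the double mutant, 0.16 on wrky18 and 0.06 on wrky40 (0.60, 0.37 and 0.28 against the wild type). With median centring the median of all measured genes on wrky60 was -0.30 against the wild type after Pst and -0.29 against mock (0.01 and 0.02 as reported). Background counts moved more. Genes at least 2-fold lower numbered 83 to 230 in the wild type after Pst (140 reported) and 38 to 139 on wrky53 (67 reported), and those higher on the double mutant 48 to 185 (95 reported). Of the measured kinase genes beside AT1G51850, 3 to 4 were at least 2-fold lower after Pst and 2 to 3 on wrky53, and of the immunity genes 0 to 1 on wrky53. The most alike genes changed with the setting: at least 2 of 5 were shared for AT1G51850 and at least 1 of 5 for BIK1 and for EFR. No paired analysis was possible because each group holds 1 array, and for the same reason no replicate could be left out.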
